A study of Mus musculus with 57 samples.

Results

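The 48 genes described here encode proteins of the lysosome: 14 cathepsins and other proteases, 11 glycan-degrading enzymes, 8 proteins of lipid breakdown and cholesterol export, 7 membrane proteins and progranulin, and 8 subunits of the proton pump. They were taken by symbol from the 24941 genes of the mouse count table, each gene by the RefSeq transcript with the highest total count. The lysosome is the acid compartment in which a cell breaks down what it engulfs and its own worn parts. A proton pump in its membrane, the vacuolar ATPase, keeps the lumen acid, and the hydrolases inside work best at that pH. Kupffer cells, which reside in the liver sinusoids, clear blood cells, lipoproteins and debris through this route, and monocytes that enter the liver build up their lysosomes as they become macrophages.

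Polyadenylated RNA was sequenced in 57 libraries of 16 groups from mice on a diet that causes non-alcoholic steatohepatitis (NASH) or on a control diet. In the population set, C57BL/6J mice on the NASH diet, for a time the labels do not give, yielded CD11b-Hi Ly6C-Lo recruited macrophages (Ly6C-low cells), CD11b-Hi Ly6C-Hi recruited macrophages (Ly6C-high cells), macrophages recruited to the Kupffer cell niche and gated as F4/80-Hi Tim4-Neg (niche cells), F4/80-Hi Tim4-Pos Kupffer cells and Ly6C-Hi blood monocytes. Healthy Kupffer cells of the same gate came from C57BL/6J mice on the control diet, and each of these 6 groups had 2 libraries. Liver cells were isolated with flavopiridol, a transcription blocker. Comparisons of liver cells with blood monocytes may hold a difference in isolation too, which was not tested. In the time course, Tim4-Pos Kupffer cells of C57BL/6J mice were taken at week 0, on the control diet (3 libraries), and after 1 (2), 4 (2), 10 (3), 20 (3) and 30 weeks (4) of the NASH diet. Niche cells after 20 weeks of the diet came from mice with floxed LXRa and LXRb, labelled either positive for Clec4f-cre, which is driven by a Kupffer cell promoter, or Cre-negative (3 libraries each). Whole livers after 4 weeks of a choline-deficient high-fat diet (CDAHFD) came from mice labelled Clec4f-cre DTR positive (12 libraries) or negative (10 libraries), where DTR is a diphtheria toxin receptor. The labels name no toxin treatment and no ages, and they do not say that replicates were separate animals, so p-values measure the spread between these libraries, which may be technical.

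Library depth was 12.4 to 22.7 megacounts in the population set, 10.5 to 27 in the time course, 2.32 to 5.09 in the LXR set and 5.39 to 9.94 in whole liver. All 48 genes passed the filter on low counts in every set except the LXR set, where Ctse did not. Levels are given as CPM, which are counts scaled to library size with TMM factors of each set, so they compare libraries of a set and not genes or sets. Gene levels are compared only as TPM, which also allow for transcript length. Changes are log2 fold changes ± SE from edgeR's quasi-likelihood test, with Benjamini-Hochberg adjusted p over all genes of the set, and an adjusted p under 0.05 is what is meant by called. Kupffer cell markers, a list of 9 genes that includes Clec4f, summed to 14250 to 37120 CPM in the Kupffer and niche cells of the population set and to 290.4 to 1138 CPM in its other cells.

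The master regulators of lysosomal genes, the MiT/TFE factors, bind a DNA word with CACGTG at its core. RefSeq promoter windows of 300 bases (GRCm38.p6), from 250 bases before to 50 after the start site, were matched for 40 of the 48 genes. CACGTG, which reads the same on both strands, lay in the window of 12 of the 40 genes (30%), against 1474 of 18063 windows of all genes of the table (8.16%). The longer TCACGTG, sought on both strands and always overlapping a CACGTG, lay in 10 windows (25%), against 827 windows (4.58%) of all genes. The 12 genes were Atp6v0d1, Atp6v1a, Ctsa, Ctsd, Ctsf, Ctsl, Gaa, Gla, Glb1, Lamp1, Mcoln1 and Naglu. The stretches shown are the 7 in which a word lay upstream of the start site and outside any annotated exon, on the strand of the gene, with CACGTG in capitals.
Atp6v1a, chr16:44139355-44139420, minus strand: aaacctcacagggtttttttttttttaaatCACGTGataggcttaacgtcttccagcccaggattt
Ctsd, chr7:142388039-142388077, minus strand: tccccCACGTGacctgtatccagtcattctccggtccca
Ctsf, chr19:4855056-4855121, plus strand: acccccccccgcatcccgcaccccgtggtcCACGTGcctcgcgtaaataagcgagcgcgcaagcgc
Gaa, chr11:119267793-119267858, plus strand: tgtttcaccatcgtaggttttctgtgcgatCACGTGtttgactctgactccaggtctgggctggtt
Glb1, chr9:114401000-114401065, plus strand: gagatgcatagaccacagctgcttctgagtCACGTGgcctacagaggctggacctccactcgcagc
Lamp1, chr8:13159070-13159160, plus strand: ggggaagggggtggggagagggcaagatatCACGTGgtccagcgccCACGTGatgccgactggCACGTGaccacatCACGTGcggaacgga
Mcoln1, chr8:3500418-3500456, plus strand: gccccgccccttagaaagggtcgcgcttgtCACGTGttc
Lamp1, which encodes an abundant membrane glycoprotein of the lysosome, carried 4 of these words in the 91 bases before its start site. Such a match describes the letters of the window and is no evidence of binding in these cells.

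The 48 genes took up between 0.80% and 7.23% of the counts of a library. In the population set the share was 4.20% and 4.26% in Ly6C-low cells, 3.98% and 4.05% in Ly6C-high cells, 5.93% and 6.18% in niche cells, 7.20% and 7.23% in NASH Kupffer cells, 5.69% and 5.81% in healthy Kupffer cells, and 2.90% and 2.92% in blood monocytes. The 6 populations thus stood apart with no overlap. In the time course the share ran from 4.72% to 5.65% at week 0, 5.71% to 6.18% at week 1, 5.26% to 5.64% at week 4, 5.06% to 5.63% at week 10, 7.00% to 7.14% at week 20 and 6.79% to 7.22% at week 30. The 7 libraries of weeks 20 and 30 were higher than the 10 earlier ones. In bulk RNA, a change in the number of cells of a type and a change in RNA per cell cannot be told apart.

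**Figure D1:**
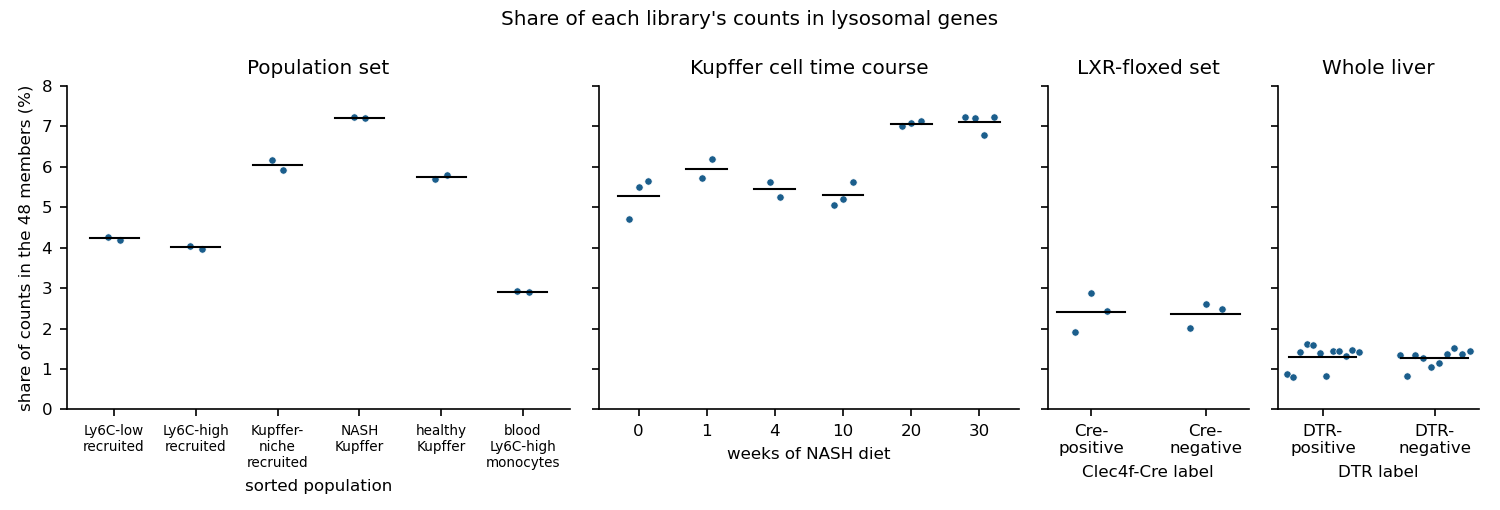
Share of a library's counts (percent) taken by the 48 lysosomal genes, with 1 point per library, in 4 panels for the population set, the time course, the LXR set and whole liver. NASH Kupffer cells (7.20% to 7.23%) and Kupffer cells at weeks 20 and 30 (6.79% to 7.22%) had the highest shares, and whole livers (0.80% to 1.62%) the lowest.

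Per length, Kupffer cells of the NASH diet had most of Ctsd, the main aspartic protease of the lysosome, at a mean of 5947 TPM. Psap, the precursor of the saposins that present sphingolipids to their enzymes, followed at 5291 TPM. In healthy Kupffer cells the order was Ctsb at 3901 TPM, Psap at 3728, Lgmn at 2905 and Ctsd at 2764. Psap came first in Ly6C-low cells at 5999 TPM, in Ly6C-high cells at 6937 TPM and in blood monocytes at 5492 TPM, and in all 3 it was followed by Ctss and Laptm5. Psap alone made up 26.0% of the TPM of the 48 genes in Ly6C-low cells, 32.2% in Ly6C-high cells and 34.9% in blood monocytes. The proteases held 36.5% to 38.3% of that TPM in Ly6C-low cells, 31.2% to 31.7% in Ly6C-high cells, 50.1% to 51.0% in niche cells, 54.3% to 54.6% in NASH Kupffer cells, 50.4% to 52.3% in healthy Kupffer cells and 24.8% to 25.5% in blood monocytes. The proteins of lipid breakdown held 31.4% to 35.0% in Ly6C-low cells, 39.3% to 39.9% in Ly6C-high cells and 22.6% to 22.8% in niche cells. They held 19.5% to 20.2% in NASH Kupffer cells, 16.97% to 18.1% in healthy Kupffer cells and 43.1% to 44.5% in blood monocytes. Their share was lower in niche and Kupffer cells, where the protease share was higher. Between healthy and NASH Kupffer cells, both shares were higher in NASH. As shares of the same total, these do not give levels. The summed CPM of the lipid proteins was 16060 to 16990 in NASH Kupffer cells, 10700 to 11500 in healthy Kupffer cells and 13220 to 13260 in blood monocytes. By mean CPM, 26 of the 48 genes were highest in NASH Kupffer cells and 28 were lowest in blood monocytes.

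Among the proteases, Ctsd (chromosome 7, 142375916 to 142387870, mm10) had 2005 and 1902 CPM in Ly6C-low cells, 1294 and 1091 in Ly6C-high cells, 5982 and 5932 in niche cells, 10120 and 10500 in NASH Kupffer cells, 4489 and 3809 in healthy Kupffer cells, and 364 and 399.5 in blood monocytes. No populations overlapped, with NASH Kupffer cells at the top and blood monocytes at the bottom. Lgmn, the asparaginyl endopeptidase that trims other cathepsins into their mature forms, had 1579 and 1183 CPM in Ly6C-low cells, 952 and 807 in Ly6C-high cells, 3791 and 3427 in niche cells, 5034 and 5251 in NASH Kupffer cells, 4449 and 4475 in healthy Kupffer cells, and 161 and 178 in blood monocytes. It too separated all 6 populations, in the same order apart from healthy Kupffer cells, which lay above niche cells. Ctsb, an abundant cysteine cathepsin, had 4759 and 4486 CPM in Ly6C-low cells, 3213 and 2791 in Ly6C-high cells, 10570 and 10560 in niche cells, 14680 and 14940 in NASH Kupffer cells, 14020 and 14470 in healthy Kupffer cells, and 1474 and 1704 in blood monocytes. Its 6 ranges were also apart, although NASH and healthy Kupffer cells were close. Ctsl, another cysteine cathepsin, had 63.7 and 64.3 CPM in Ly6C-low cells, 91.8 and 94.6 in Ly6C-high cells, 228 and 224 in niche cells, 376 and 338 in NASH Kupffer cells, 364 and 305 in healthy Kupffer cells, and 34.8 and 31.8 in blood monocytes. Here NASH and healthy Kupffer cells overlapped, and the niche cells lay below both. Ctsf, a cysteine protease with a long propeptide, had 8.62 and 8.44 CPM in Ly6C-low cells, 7.34 and 7.93 in Ly6C-high cells, 86.3 and 75.0 in niche cells, 108 and 88.2 in NASH Kupffer cells, 147 and 134 in healthy Kupffer cells, and 1.66 and 2.04 in blood monocytes. It was highest in healthy Kupffer cells and nearly missing from blood monocytes. Exons of Ctsd overlap those of Gm49369 on the same strand over 37.1% of their length, and those of Ctsl, Ctsb and Ctsa overlap genes of the opposite strand over 25.8%, 12.8% and 11.7%. Whether counting used the strand is not given in the sources used here, so part of these counts may belong to the other gene.

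Ctsc, the dipeptidyl peptidase that activates granule serine proteases, had 509 and 553 CPM in Ly6C-low cells, 635 and 705 in Ly6C-high cells, 1510 and 1638 in niche cells, 1915 and 1777 in NASH Kupffer cells, 2023 and 1532 in healthy Kupffer cells, and 773 and 964 in blood monocytes. Ly6C-low and Ly6C-high cells lay below blood monocytes. Ctsz, a carboxypeptidase, had 904 and 790.2 CPM in Ly6C-low cells, 789 and 782 in Ly6C-high cells, 1233 and 1152 in niche cells, 1643 and 2102 in NASH Kupffer cells, 986 and 874 in healthy Kupffer cells, and 444 and 350.0 in blood monocytes. Ctso, a cysteine cathepsin with a little-studied role, had 47.8 and 46.9 CPM in Ly6C-low cells, 39.1 and 48.4 in Ly6C-high cells, 60.2 and 67.3 in niche cells, 63.4 and 63.0 in NASH Kupffer cells, 96.1 and 79.2 in healthy Kupffer cells, and 31.1 and 34.1 in blood monocytes. NASH Kupffer cells held the most Ctsz and healthy Kupffer cells the most Ctso. The scarce proteases ran differently. Ctse, an endosomal aspartic protease, had 15.0 and 11.4 CPM in Ly6C-low cells, 24.9 and 20.5 in Ly6C-high cells, 4.52 and 4.75 in niche cells, 0.408 and 1.99 in NASH Kupffer cells, 0.505 and 0.298 in healthy Kupffer cells, and 23.7 and 33.3 in blood monocytes. Ctsk, a collagen-cutting cathepsin known from osteoclasts, had 6.10 and 8.06 CPM in Ly6C-low cells, 4.87 and 3.73 in Ly6C-high cells, 1.60 and 2.94 in niche cells, 0.734 and 1.99 in NASH Kupffer cells, 0.379 and 0.746 in healthy Kupffer cells, and 0.758 and 0.407 in blood monocytes. Ctse was highest in blood monocytes and Ly6C-high cells, which overlapped, and Ctsk in Ly6C-low cells. Both were at or below 1.99 CPM in every Kupffer cell library of the set.

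Of the glycan-degrading enzymes, Gla (chromosome X, 134588169 to 134601005), the alpha-galactosidase that removes galactose from globosides, had 32.2 and 33.5 CPM in Ly6C-low cells, 27.2 and 22.7 in Ly6C-high cells, 47.5 and 45.01 in niche cells, 62.1 and 54.1 in NASH Kupffer cells, 19.5 and 19.02 in healthy Kupffer cells, and 14.2 and 18.5 in blood monocytes. NASH Kupffer cells were highest, and healthy Kupffer cells lay below all recruited macrophages. Gusb (chromosome 5, 129989016 to 130003049), the beta-glucuronidase, had 321 and 328 CPM in Ly6C-low cells, 248 and 291 in Ly6C-high cells, 455 and 441 in niche cells, 615 and 603 in NASH Kupffer cells, 273 and 261 in healthy Kupffer cells, and 249.6 and 252 in blood monocytes. It had the same top and the same place for healthy Kupffer cells, except that these overlapped Ly6C-high cells. Ids, the sulfatase that starts on heparan and dermatan sulfate, had 173 and 184 CPM in Ly6C-low cells, 139.6 and 154 in Ly6C-high cells, 70.1 and 78.7 in niche cells, 67.8 and 74.4 in NASH Kupffer cells, 114 and 109.8 in healthy Kupffer cells, and 142 and 187 in blood monocytes. The next enzyme of that pathway, Idua, the iduronidase, had 76.3 and 76.9 CPM in Ly6C-low cells, 51.1 and 58.5 in Ly6C-high cells, 89.8 and 88.3 in niche cells, 107 and 108 in NASH Kupffer cells, 143 and 148 in healthy Kupffer cells, and 39.7 and 44.4 in blood monocytes. Ids was lowest in NASH Kupffer cells and niche cells, which overlapped, whereas Idua was lowest in blood monocytes and highest in healthy Kupffer cells. Neu1, the sialidase, had 81.8 and 80.7 CPM in Ly6C-low cells, 101 and 108 in Ly6C-high cells, 159 and 143 in niche cells, 192 and 170.0 in NASH Kupffer cells, 229.5 and 222 in healthy Kupffer cells, and 98.3 and 99.7 in blood monocytes. Naglu, which acts on heparan sulfate, had 78.2 and 68.5 CPM in Ly6C-low cells, 53.4 and 53.1 in Ly6C-high cells, 126 and 115 in niche cells, 145 and 151 in NASH Kupffer cells, 102 and 113 in healthy Kupffer cells, and 34.8 and 31.9 in blood monocytes. Neu1 was highest in healthy Kupffer cells and Naglu in NASH Kupffer cells. Glb1, the beta-galactosidase, differed widely between libraries of a group, at 57.8 and 31.6 CPM in Ly6C-low cells, 43.6 and 29.8 in Ly6C-high cells, 108 and 53.0 in niche cells, 149 and 78.1 in NASH Kupffer cells, 121 and 68.1 in healthy Kupffer cells, and 44.2 and 51.6 in blood monocytes.

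For lipid breakdown, Psap (chromosome 10, 60277628 to 60302600) had 9944 and 10540 CPM in Ly6C-low cells, 12310 and 12280 in Ly6C-high cells, 11270 and 10590 in niche cells, 11970 and 12920 in NASH Kupffer cells, 7069 and 8082 in healthy Kupffer cells, and 10220 and 9890 in blood monocytes. Healthy Kupffer cells lay below every other library of the set. Gm2a, the activator protein that lifts gangliosides out of the membrane, had 1376 and 1772 CPM in Ly6C-low cells, 1279 and 1538 in Ly6C-high cells, 886 and 798 in niche cells, 820.4 and 844 in NASH Kupffer cells, 504 and 558 in healthy Kupffer cells, and 1193 and 1155 in blood monocytes. It was also lowest in healthy Kupffer cells and highest in Ly6C-low and Ly6C-high cells. Lipa, the acid lipase that frees cholesterol from lipoprotein esters, had 587 and 719.9 CPM in Ly6C-low cells, 357 and 386 in Ly6C-high cells, 846 and 972 in niche cells, 1088 and 1080 in NASH Kupffer cells, 1217 and 941 in healthy Kupffer cells, and 238 and 316 in blood monocytes. Npc2, which hands that cholesterol to the membrane transporter Npc1, had 697 and 643 CPM in Ly6C-low cells, 1149 and 1014 in Ly6C-high cells, 1146 and 1042 in niche cells, 1165 and 1119 in NASH Kupffer cells, 829 and 818 in healthy Kupffer cells, and 824 and 981 in blood monocytes. Lipa was lowest in blood monocytes and Npc2 in Ly6C-low cells. Ppt1, a thioesterase that strips palmitate from proteins, had 161 and 174 CPM in Ly6C-low cells, 213 and 238 in Ly6C-high cells, 185 and 194 in niche cells, 179 and 198 in NASH Kupffer cells, 145 and 142 in healthy Kupffer cells, and 272 and 347 in blood monocytes, with blood monocytes highest and healthy Kupffer cells lowest.

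Among the membrane and pump genes, Grn, which encodes progranulin, had 1796 and 1390 CPM in Ly6C-low cells, 1575 and 1251 in Ly6C-high cells, 4297 and 3557 in niche cells, 5564 and 5088 in NASH Kupffer cells, 4548 and 4774 in healthy Kupffer cells, and 951 and 954 in blood monocytes. Laptm5, a lysosomal membrane protein of blood cells, had 3493 and 3241 CPM in Ly6C-low cells, 2902 and 3021 in Ly6C-high cells, 2787 and 2462 in niche cells, 2804 and 2896 in NASH Kupffer cells, 2558 and 2865 in healthy Kupffer cells, and 2107 and 2195 in blood monocytes. Grn was highest in NASH Kupffer cells and Laptm5 in Ly6C-low cells. Atp6v0a1 (chromosome 11, 101009452 to 101063717), a subunit of the membrane part of the proton pump, had 306 and 332 CPM in Ly6C-low cells, 200 and 153 in Ly6C-high cells, 293 and 329 in niche cells, 326 and 434 in NASH Kupffer cells, 161 and 109.9 in healthy Kupffer cells, and 67.7 and 71.2 in blood monocytes. Healthy Kupffer cells lay near Ly6C-high cells and far below NASH Kupffer cells. Atp6v1b2, a subunit of the part that splits ATP, had 381 and 398 CPM in Ly6C-low cells, 508 and 482 in Ly6C-high cells, 564 and 607 in niche cells, 759 and 832 in NASH Kupffer cells, 504 and 473 in healthy Kupffer cells, and 556 and 621 in blood monocytes. NASH Kupffer cells were above every other library.

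**Figure D2:**
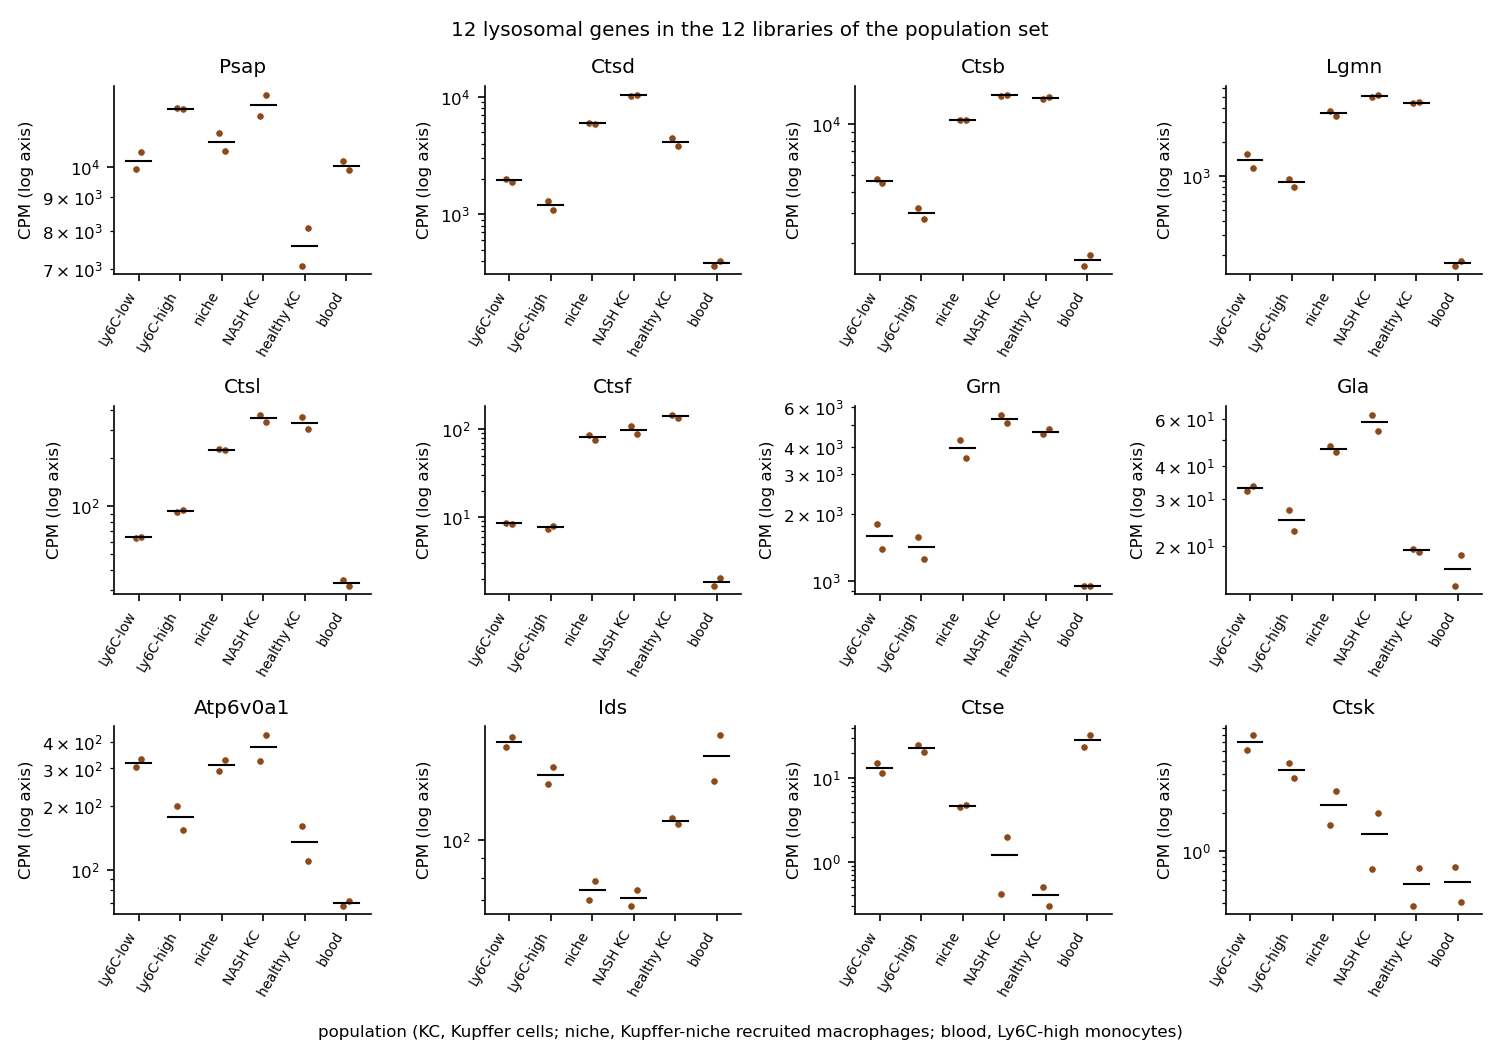
CPM on a log axis of 12 of the genes in the 6 populations, with 1 point per library and a bar at the mean of each group of 2. Ctsd ranged from 364.1 CPM in a blood monocyte library to 10500 CPM in a NASH Kupffer library, and Ids ran the other way, with its lowest values, 67.8 to 78.7 CPM, in NASH Kupffer cells and niche cells.

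Kupffer cells of the NASH diet were then set against Kupffer cells of the control diet. Of the 48 genes, 12 were called higher, where 11.2% of all 14407 genes tested were, and 4 were called lower, where 9.56% of all genes were. The share of the 48 called higher was thus above that of all genes, and the share called lower close to it. The median log2 fold change of the 48 was 0.14, against -0.00036 for all genes. Gla rose by 1.59 ± 0.16 log2 (adjusted p = 7.07e-05), Atp6v0a1 by 1.49 ± 0.20 log2 (adjusted p = 0.000635) and Ctsd by 1.31 ± 0.14 log2 (adjusted p = 0.000111). Gusb rose by 1.19 ± 0.11 log2 (adjusted p = 4.45e-05), Ctsz by 1.01 ± 0.16 log2 (adjusted p = 0.00161) and Psap by 0.72 ± 0.13 log2 (adjusted p = 0.00390). The other 6 called higher were Atp6v1b2 at 0.70 ± 0.11 log2, Gm2a at 0.65 ± 0.15 log2, Atp6v1c1 at 0.64 ± 0.13 log2, Manba at 0.49 ± 0.13 log2, Npc2 at 0.47 ± 0.13 log2 and Naglu at 0.46 ± 0.11 log2. Called lower were Ids at -0.66 ± 0.14 log2 (adjusted p = 0.00868), Ctsf at -0.52 ± 0.13 log2 (adjusted p = 0.0208), Ctso at -0.47 ± 0.14 log2 (adjusted p = 0.0350) and Idua at -0.44 ± 0.11 log2 (adjusted p = 0.0161). So 4 glycan-degrading enzymes were higher and 2, Ids and Idua, were lower. The calls did not split by substrate, since Naglu, which also acts on heparan sulfate, was among the higher. None of the 7 membrane proteins and progranulin was called, with changes between -0.17 and 0.19. Ctse (1.58 log2) and Ctsk (1.31 log2) had large changes that were not called at their low counts.

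Of the 36 other lysosomal genes of a fixed list, 10 were higher and 2 lower in NASH Kupffer cells than in healthy Kupffer cells. Cd63, a tetraspanin of late endosomes, rose to 68.5 and 98.7 CPM in NASH Kupffer cells, against 0.82 CPM in both healthy libraries (6.66 ± 0.35 log2). Atp6v0d2, the pump subunit of osteoclasts and macrophages, rose to 52.0 and 82.6 CPM in NASH Kupffer cells, against 0.76 and 0.60 CPM in healthy Kupffer cells (6.61 ± 0.36 log2). Of 6 genes that sort enzymes to the lysosome, 4 were higher, among them Sort1 (2.38 log2) and the receptor Igf2r (1.07 log2). None of the 4 MiT/TFE factors was called. Of 3 cathepsin inhibitors, Cstb was higher (1.55 log2). Markers of other cells moved too. Hepatocyte markers summed to 134.4 to 432.0 CPM in NASH Kupffer cells and 667.3 to 1028 CPM in healthy Kupffer cells, with 3 of 10 lower. Sinusoidal endothelial markers summed to 859.2 to 861.4 CPM in NASH Kupffer cells and 1311 to 1321 CPM in healthy Kupffer cells, with 8 of 10 lower and 1 higher. T and NK cell markers summed to 23.1 to 39.9 CPM in NASH Kupffer cells and 7.76 to 9.70 CPM in healthy Kupffer cells, with 6 of 8 higher, and the Kupffer markers to 25400 to 28670 CPM and 28600 to 37120 CPM in the same order, with 4 of 9 lower. No marker of these lists was at 0 in all libraries, and their part in the result was not tested.

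With 1 library left out, Gla, Atp6v0a1, Ctsd, Gusb, Ctsz, Psap and Atp6v1b2 kept their calls. The log2 fold change without the library stands beside each call that was lost, here and in later comparisons. Ctsf (-0.45 to -0.40), Gm2a (0.58 to 0.60) and Manba (0.38 to 0.39) were not called without replicate 2 of the NASH Kupffer cells or replicate 1 of the healthy Kupffer cells. Ctso (-0.50 to -0.32) and Naglu (0.39 to 0.49) were not called without replicate 1 or 2 of the NASH Kupffer cells or replicate 1 of the healthy Kupffer cells. Ids (-0.59) was not called without replicate 1 of the NASH Kupffer cells. Idua (-0.47 to -0.42) was not called without replicate 1 or 2 of the NASH Kupffer cells or replicate 2 of the healthy Kupffer cells. Atp6v1c1 (0.51 to 0.52) was not called without replicate 2 of the NASH Kupffer cells or replicate 2 of the healthy Kupffer cells. Npc2 (0.44 to 0.49) was not called with any 1 of the 4 libraries left out. Without replicate 2 of the NASH Kupffer cells 7 of the genes were called higher and 1 lower. limma on log2(TPM + 1) called 7 higher and 9 lower. In that fit the median change of all genes was -0.15 here and 0.098 in niche over NASH Kupffer cells. It was -0.10 in niche cells over blood monocytes and 0.22 in Ly6C-low over niche cells. At weeks 1, 4, 20 and 30 over week 0 it was -0.17, -0.12, -0.18 and -0.23. What moved these medians was not tested.

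Niche cells, which lack the Kupffer cell marker Tim4, were set against NASH Kupffer cells of the same diet, and few genes were called. None of the 48 genes was called higher, where 0.333% of all genes were, and 2 were called lower, where 0.201% of all genes were. Ctsd changed by -0.79 ± 0.14 log2 (adjusted p = 0.0335) and Ctsl by -0.66 ± 0.12 log2 (adjusted p = 0.0351). The signs leaned the same way in 40 of the 48 genes, with a median of -0.25 against 0.013 for all genes. edgeR gave 19 of the 48 and 1311 of all 14407 genes an unadjusted p under 0.05, in either direction. Ctsd (-0.82 to -0.75) and Ctsl (-0.72 to -0.58) were not called with any 1 of the 4 libraries left out. DESeq2 called 9 of the 48 lower and 1 higher. Of the 36 other lysosomal genes, Atp6v0d2 was lower at 20.4 and 28.4 CPM in niche cells, against 52.0 and 82.6 CPM in NASH Kupffer cells (-1.47 ± 0.25 log2). Kupffer markers summed to 14250 to 16540 CPM in niche cells and 25400 to 28670 CPM in NASH Kupffer cells, with 3 of 9 lower. Ly6C-high monocyte markers summed to 212.5 to 264.7 CPM in niche cells and 42.31 to 47.92 CPM in NASH Kupffer cells. Of these 6, 2 were called higher and none lower. The part of the cells that both lists mark was not tested.

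Against the blood monocytes, niche cells had more of most lysosomal genes. Called higher were 33 of the 48, where 34% of all genes were, and called lower were 4, where 26.5% of all genes were. The median change of the 48 was 0.88, against 0.095 for all genes. Of the 14 proteases 13 rose, led by Ctsf at 5.47 ± 0.18 log2 (adjusted p = 1.52e-09), Lgmn at 4.41 ± 0.18 log2 (adjusted p = 6.03e-09) and Ctsd at 3.96 ± 0.15 log2 (adjusted p = 4.35e-09). Ctsl rose by 2.76 ± 0.12 log2 (adjusted p = 1.43e-08) and Ctsb by 2.73 ± 0.14 log2 (adjusted p = 3.84e-08). Atp6v0a1 led the proton pump at 2.16 ± 0.20 log2 (adjusted p = 4.6e-06), with 5 of 8 subunits called higher, and Grn rose by 2.04 ± 0.17 log2. The 4 that fell were Ctse at -2.61 ± 0.37 log2 (adjusted p = 0.000117), Ids at -1.14 ± 0.14 log2 (adjusted p = 3.49e-05), Ppt1 at -0.70 ± 0.13 log2 (adjusted p = 0.000733) and Gm2a at -0.48 ± 0.15 log2 (adjusted p = 0.0147). Of the 8 glycan-degrading enzymes called higher, Naglu at 1.86 log2 and Gaa, which digests glycogen, at 1.81 log2 changed most. Psap, the most abundant of the 48 in both populations, had a change of 0.12 log2 that was not called.

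Other lysosomal genes followed, with 18 of the 36 higher and 6 lower in niche cells than in blood monocytes. Cd63 had 62.0 and 74.2 CPM in niche cells, against 0.14 and 0.16 CPM in blood monocytes. The phosphatase Acp5 rose by 5.81 ± 0.23 log2, and among sorting genes Igf2r rose by 4.99 ± 0.22 log2 while Sort1 changed by -2.48 ± 0.24 log2. Of the MiT/TFE factors, Tfe3 (0.45 log2), Mitf (1.25 log2) and Tfec (1.60 log2) were higher. Hepatocyte markers summed to 92.5 to 400.8 CPM in niche cells and 0.24 to 0.33 CPM in blood monocytes, with 10 of 10 higher. Stellate markers summed to 174.7 to 539.9 CPM and 2.99 to 3.34 CPM in the same order, with 9 of 9 higher, and no marker was at 0 in all libraries. T and NK cell markers were also higher in 7 of 8 tested, B cell markers in 5 of 5 and sinusoidal endothelial markers in 9 of 10, and Ly6C-high monocyte markers were lower in 6 of 6. Their part in the result was not tested. Asah1 (0.21 to 0.35) and Gm2a (-0.45 to -0.40) were not called without replicate 2 of the niche cells or replicate 1 of the blood monocytes. Atp6v1a (0.37) was not called without replicate 2 of the niche cells. Ctsk (1.38 to 1.56) was not called without replicate 2 of the niche cells or replicate 2 of the blood monocytes.

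Ly6C-low cells, the recruited macrophages outside the niche gate, had less of many lysosomal genes than niche cells. Called lower were 26 of the 48, where 18.1% of all genes were, and called higher were 5, where 15.3% of all genes were. The median change of the 48 was -0.47, against -0.014 for all genes. Of the 14 proteases 12 were lower and the remaining 2 were higher. The fall was largest for Ctsf at -3.24 ± 0.15 log2 (adjusted p = 3.04e-07), Ctsl at -1.82 ± 0.12 log2 (adjusted p = 1.67e-06), Ctsd at -1.61 ± 0.14 log2 (adjusted p = 1.13e-05) and Ctsc at -1.57 ± 0.16 log2 (adjusted p = 3.64e-05). Lgmn changed by -1.39 ± 0.16 log2 and Grn by -1.30 ± 0.17 log2. Higher were Ctsk at 1.64 ± 0.47 log2 (adjusted p = 0.0200), Ctse at 1.52 ± 0.37 log2 (adjusted p = 0.00892), Ids at 1.27 ± 0.14 log2 (adjusted p = 6.06e-05), Gm2a at 0.90 ± 0.15 log2 (adjusted p = 0.00085) and Laptm5 at 0.36 ± 0.12 log2 (adjusted p = 0.0415). Among the proton pump subunits only Atp6v1a (-0.41 log2) and Atp6v1b2 (-0.59 log2) of 8 were called, both lower.

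The list of 36 other lysosomal genes had 20 lower and 4 higher in Ly6C-low cells than in niche cells. Tfec, a MiT/TFE factor, had 11.5 and 10.3 CPM in Ly6C-low cells, against 59.8 and 60.3 CPM in niche cells (-2.46 ± 0.14 log2), while Tfeb was higher (0.46 log2). The cathepsin inhibitor Cst7 had 6.54 and 7.81 CPM in Ly6C-low cells, against 1.71 and 1.67 CPM in niche cells (2.08 ± 0.37 log2). Dendritic cell markers summed to 391.4 to 414.1 CPM in Ly6C-low cells and 54.8 to 58.5 CPM in niche cells, with 6 of 8 higher and 1 lower. Sinusoidal endothelial markers summed to 961.7 to 1015 CPM in Ly6C-low cells and 603.0 to 644.0 CPM in niche cells, with 8 of 10 higher and 1 lower. Neutrophil markers summed to 157.7 to 182.1 CPM in Ly6C-low cells and 137.2 to 137.9 CPM in niche cells, with 5 of 7 tested lower although the sum was not. Kupffer markers summed to 793.0 to 1138 CPM in Ly6C-low cells and 14250 to 16540 CPM in niche cells, with 7 of 9 lower, and the part of these cells in the result was not tested. limma on log2(TPM + 1) called 8 of the 48 higher and 16 lower. Atp6v1a (-0.44 to -0.36) and Gaa (-0.44 to -0.38) were not called without replicate 1 or 2 of the niche cells or replicate 2 of the Ly6C-low cells. Gusb (-0.42) was not called without replicate 1 of the niche cells. Ctse (1.30 at the lowest) was not called without replicate 1 of the niche cells or replicate 1 of the Ly6C-low cells. Ctsk (1.28 to 1.43) was not called without replicate 1 of the niche cells or replicate 2 of the Ly6C-low cells. Asah1 (-0.53 to -0.45), Ctso (-0.49 to -0.35), Ctsz (-0.60 to -0.40), Gla (-0.54 to -0.43) and Laptm5 (0.27 to 0.47) were not called with any 1 of the 4 libraries left out.

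Ly6C-high cells of the liver carry the surface marker of the blood monocytes they were compared with. Of the 48 genes, 22 were called higher in the liver cells, where 27.3% of all genes were, and 1 was called lower, where 21.3% of all genes were. The median change of the 48 was 0.28, against -0.013 for all genes. Of the 14 proteases 11 rose, led by Ctsk at 2.80 ± 0.54 log2 (adjusted p = 0.00150), Lgmn at 2.37 ± 0.16 log2 (adjusted p = 1.17e-06), Ctsf at 2.07 ± 0.19 log2 (adjusted p = 8.6e-06) and Ctsd at 1.64 ± 0.14 log2 (adjusted p = 5.28e-06). Ctsl rose by 1.48 ± 0.12 log2 (adjusted p = 3.79e-06), and Atp6v0a1 by 1.35 ± 0.20 log2 (adjusted p = 0.00028). Ppt1 was the gene called lower, at -0.46 ± 0.13 log2 (adjusted p = 0.0134). Mcoln1, the calcium channel of the lysosomal membrane, rose by 1.00 ± 0.14 log2 and Npc1 by 0.74 ± 0.12 log2. Of the 36 other lysosomal genes, 12 were higher and 5 lower, with Cd63 at 21.8 and 14.0 CPM in Ly6C-high cells, against 0.14 and 0.16 CPM in blood monocytes.

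Hepatocyte markers summed to 1432 to 3981 CPM in Ly6C-high cells and 0.24 to 0.33 CPM in blood monocytes, with 10 of 10 higher. Stellate markers summed to 662.8 to 812.6 CPM in Ly6C-high cells and 2.99 to 3.34 CPM in blood monocytes, and sinusoidal endothelial markers to 1405 to 1490 CPM and 225.0 to 326.8 CPM in the same order, with 9 of 9 and 9 of 10 higher. T and NK cell markers were also higher in 7 of 8 tested, dendritic cell markers in 7 of 8 and B cell markers in 5 of 5, and Ly6C-high monocyte markers were lower in 6 of 6. No marker was at 0 in all libraries, and the part of these cells in the result was not tested. Atp6v0c (0.88 to 1.08) and Grn (0.39 to 0.56) were not called without replicate 1 of the Ly6C-high cells or replicate 1 or 2 of the blood monocytes. Ctss (0.28 to 0.41) was not called without replicate 1 or 2 of the Ly6C-high cells or replicate 1 of the blood monocytes. Gla (0.43 to 0.48) was not called without replicate 1 of the Ly6C-high cells or replicate 1 of the blood monocytes. Ppt1 (-0.39 to -0.28) was not called without replicate 1 of the Ly6C-high cells or replicate 2 of the blood monocytes. Idua (0.28 to 0.30) was not called without replicate 2 of the Ly6C-high cells or replicate 1 of the blood monocytes. Ctso (0.26 to 0.48) was not called without replicate 2 of the Ly6C-high cells or replicate 1 or 2 of the blood monocytes. Atp6v1c1 (0.28 to 0.46) was not called with any 1 of the 4 libraries left out.

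Within the recruited macrophages outside the niche gate, Ly6C-low cells differed from Ly6C-high cells in 13 of the 48 genes. Called higher were 8, where 11.6% of all genes were, and called lower were 5, where 14% of all genes were. With both directions together, the 48 were thus called about as often as all genes. The median change was 0.11, against -0.027 for all genes. The genes that rose included Atp6v0a1 at 0.85 ± 0.20 log2 (adjusted p = 0.00977), Lipa at 0.81 ± 0.17 log2 (adjusted p = 0.00647), Ctsd at 0.71 ± 0.14 log2 (adjusted p = 0.00367), Lgmn at 0.65 ± 0.15 log2 (adjusted p = 0.0110), Ctsb at 0.62 ± 0.13 log2 (adjusted p = 0.00654) and Idua at 0.48 ± 0.11 log2 (adjusted p = 0.00829). The 5 that fell were Npc2 at -0.69 ± 0.13 log2 (adjusted p = 0.00284), Ctsl at -0.54 ± 0.12 log2 (adjusted p = 0.00679), Ppt1 at -0.43 ± 0.13 log2 (adjusted p = 0.0326), Neu1 at -0.37 ± 0.11 log2 (adjusted p = 0.0284) and Atp6v1b2 at -0.35 ± 0.11 log2 (adjusted p = 0.0414). So the acid lipase rose while Npc2, which takes over the cholesterol it frees, fell, and Ctsb and Ctsl moved in opposite directions. Of the 36 other lysosomal genes 8 were higher and 3 lower. Hepatocyte markers summed to 147.1 to 357.2 CPM in Ly6C-low cells and 1432 to 3981 CPM in Ly6C-high cells, with 10 of 10 lower. Dendritic cell markers summed to 391.4 to 414.1 CPM in Ly6C-low cells and 92.1 to 112.8 CPM in Ly6C-high cells, with 6 of 8 higher. Ly6C-high monocyte markers were lower in 6 of 6 (789.3 to 909.2 CPM in Ly6C-low cells and 3755 to 4215 CPM in Ly6C-high cells), neutrophil markers in 6 of 7 tested and sinusoidal endothelial markers in 6 of 10. The monocyte list holds Ly6c2, and both populations were gated on Ly6C, so the gate sets part of that difference. The part in the result of the cells that these lists mark was not tested. limma on log2(TPM + 1) called 9 of the 48 higher and 3 lower. Ctsd, Lipa and Npc2 kept their calls whichever library was left out. Atp6v0a1 (0.67) and Ctsb (0.52) were not called without replicate 2 of the Ly6C-high cells. Ctsl (-0.53 to -0.52) and Lgmn (0.43 to 0.54) were not called without replicate 2 of the Ly6C-high cells or replicate 1 of the Ly6C-low cells. Idua (0.40) was not called without replicate 1 of the Ly6C-high cells. Naglu (0.37 to 0.48) was not called without replicate 1 or 2 of the Ly6C-high cells or replicate 1 of the Ly6C-low cells. Atp6v1b2 (-0.39 to -0.30), Neu1 (-0.40 to -0.32), Ppt1 (-0.49 to -0.35) and Tpp1 (0.25 to 0.39) were not called with any 1 of the 4 libraries left out.

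**Figure D3:**
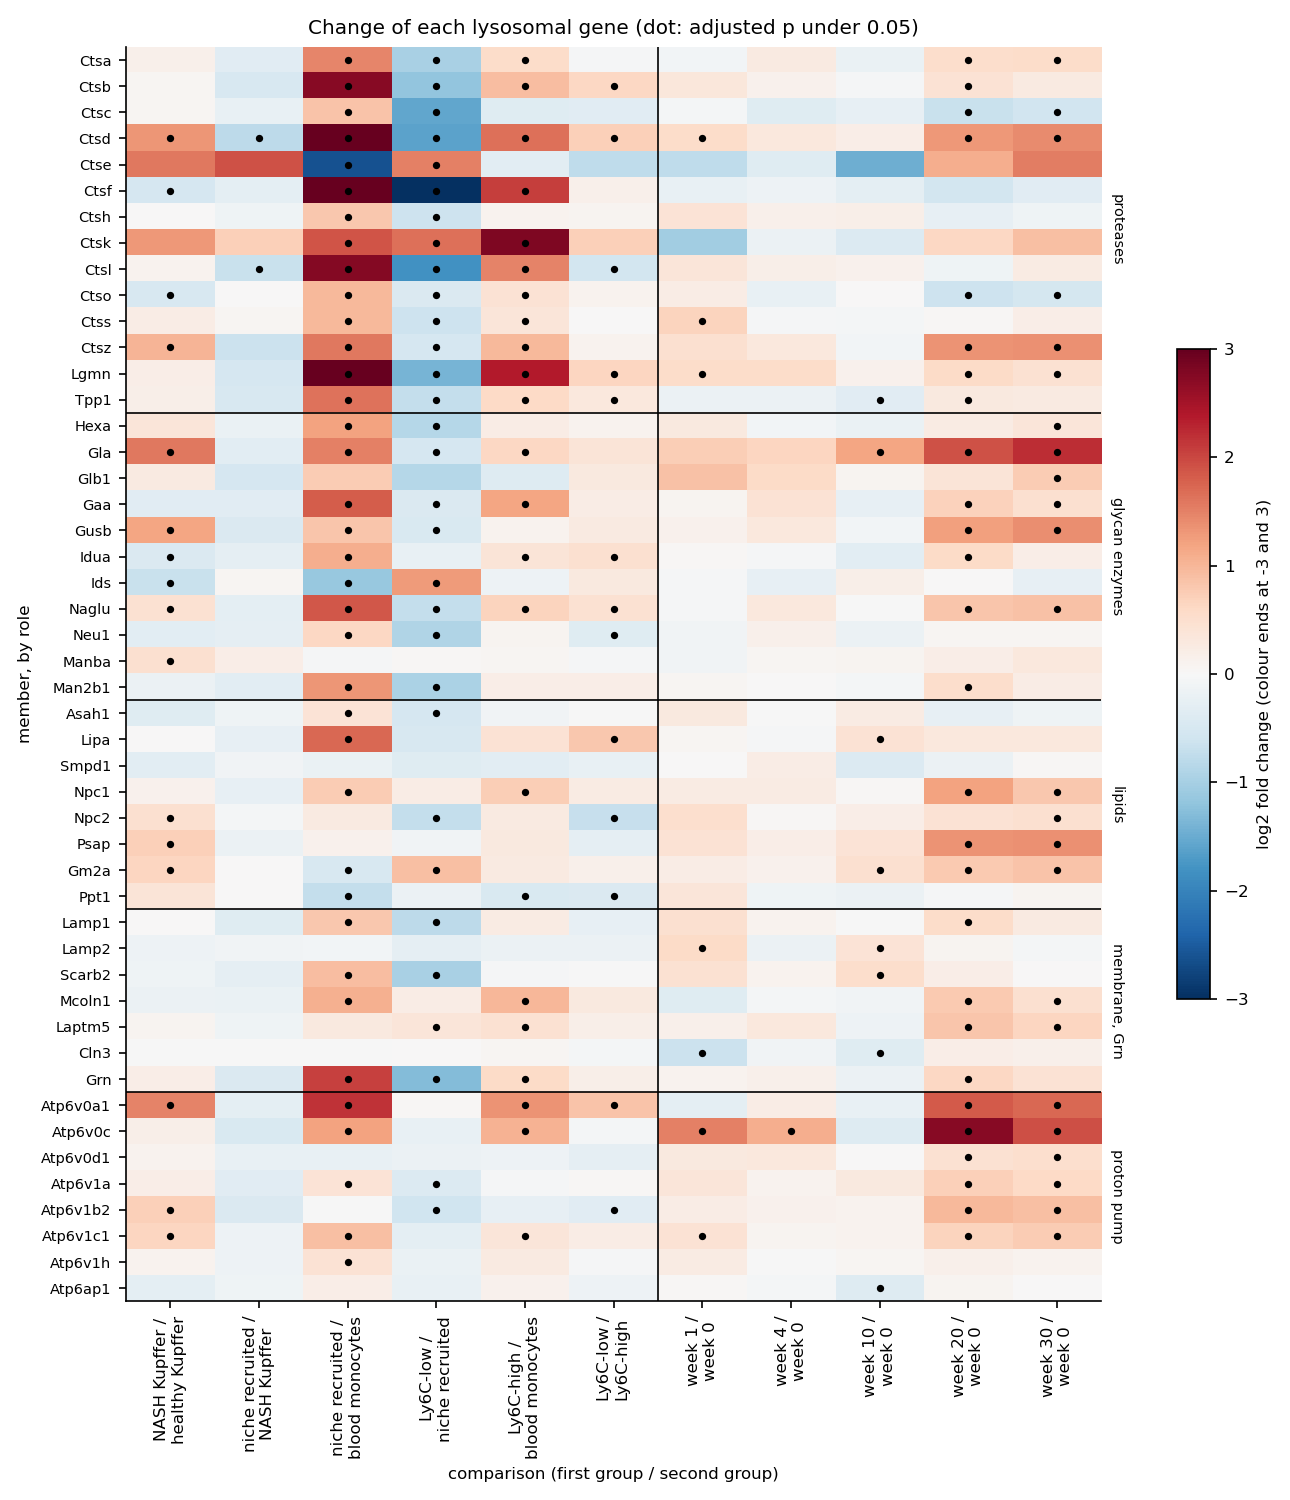
Log2 fold changes of the 48 genes (rows, by role) in 11 comparisons (columns), with colour clipped at 3 in either direction and a dot where the adjusted p was under 0.05. The columns with most dots are niche cells against blood monocytes (37), Ly6C-low cells against niche cells (31) and Kupffer cells at week 20 against week 0 (27).

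In the time course each week was set against week 0. Only week 0 was on the control diet, so time on the diet cannot be told apart from age or time of collection. At week 1, 6 of the 48 genes were called higher, where 9.42% of all 14552 genes tested were, and 1 was called lower, where 6.56% of all genes were. At week 4, 1 was called higher, where 5.55% of all genes were, and none lower, where 2.99% of all genes were. At week 10, 5 were called higher, where 11.5% of all genes were, and 3 lower, where 7.63% of all genes were. With both directions together, the 48 were called about as often as all genes at weeks 1 and 10, and less often at week 4. At week 20, 25 were called higher, where 18.2% of all genes were, and 2 lower, where 16.6% of all genes were. At week 30, 22 were called higher, where 15.5% of all genes were, and 2 lower, where 15% of all genes were. The median change of the 48 was 0.23 at week 1, 0.097 at week 4, -0.023 at week 10, 0.48 at week 20 and 0.40 at week 30, and that of all genes lay between -0.0042 and 0.00084. Of the 25 genes higher at week 20, 19 were also higher at week 30. On log2(TPM + 1), limma called 1 higher and 3 lower at week 1, 1 and 3 at week 4, 4 and 4 at week 10, 16 and 7 at week 20, and 15 and 8 at week 30. DESeq2 called 16 higher and 1 lower at week 1.

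The proteases moved in both directions. Of 14, 6 were higher and 2 lower at week 20, and 4 were higher and 2 lower at week 30. Ctsd had 3036, 4086 and 4009 CPM at week 0, 5276 and 5631 at week 1, 5063 and 4243 at week 4, 4059, 4224 and 4471 at week 10, 9112, 7733 and 10620 at week 20, and 10340, 10490, 8989 and 10070 at week 30. Every library of weeks 20 and 30 was above every earlier one, and the change was 1.30 ± 0.16 log2 (adjusted p = 1.77e-05) at week 20 and 1.43 ± 0.15 log2 (adjusted p = 4.62e-06) at week 30. Ctsz (chromosome 2, 174427494 to 174439039) had 446, 619 and 564 CPM at week 0, 641 and 876 at week 1, 744 and 612 at week 4, 475, 560.4 and 505 at week 10, 1230, 1407 and 1499 at week 20, and 1295, 1565, 1432 and 1366 at week 30. It showed the same gap between early and late weeks, with 1.34 ± 0.15 log2 (adjusted p = 1.11e-05) at week 20 and 1.38 ± 0.15 log2 (adjusted p = 5.2e-06) at week 30. Lgmn had 2810, 3004 and 3194 CPM at week 0, 4095 and 4749 at week 1, 4319 and 4440 at week 4, 2886, 3273 and 3735 at week 10, 4181, 5551 and 3584 at week 20, and 3926, 4433, 3970 and 4076 at week 30. It was called higher at week 1 (0.56 ± 0.17 log2), week 20 (0.56 ± 0.16 log2) and week 30 (0.45 ± 0.15 log2), and not at weeks 4 and 10. Ctss, the cathepsin that cuts the invariant chain in antigen-presenting cells, had 2158, 2502 and 2717 CPM at week 0, 3827 and 3930 at week 1, 2238 and 2597 at week 4, 2345, 2220 and 2561 at week 10, 2509, 2317 and 2740 at week 20, and 2916, 2699, 2883 and 2795 at week 30. It was called at week 1 (0.66 ± 0.14 log2 (adjusted p = 0.00344)), where both libraries were above all others.

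Ctsc had 2732, 2481 and 2950 CPM at week 0, 2919 and 2312 at week 1, 2013 and 2195 at week 4, 2238, 2223 and 2463 at week 10, 1942, 1424 and 1773 at week 20, and 1893, 1907, 1852 and 1687 at week 30. Ctso had 90.1, 104 and 117 CPM at week 0, 117 and 126 at week 1, 84.8 and 92.2 at week 4, 109, 102 and 105 at week 10, 67.1, 64.6 and 70.7 at week 20, and 66.6, 79.9, 72.2 and 67.8 at week 30. Both were below every earlier library at weeks 20 and 30. Ctsc changed by -0.67 ± 0.14 log2 (adjusted p = 0.00151) at week 20 and -0.57 ± 0.13 log2 (adjusted p = 0.00300) at week 30, and Ctso by -0.62 ± 0.11 log2 (adjusted p = 0.000485) and -0.54 ± 0.10 log2 (adjusted p = 0.000896). Tpp1, a peptidase that removes tripeptides, had 476, 484 and 533 CPM at week 0, 429 and 455 at week 1, 456 and 429.7 at week 4, 377, 362 and 433 at week 10, 633, 598 and 591 at week 20, and 578, 659, 581 and 564 at week 30. It was lower at week 10 (-0.35 ± 0.10 log2 (adjusted p = 0.0280)) and higher at week 20 (0.29 ± 0.10 log2 (adjusted p = 0.0409)). Ctsh, an aminopeptidase, had 593, 788 and 864 CPM at week 0, 956 and 1020 at week 1, 877 and 786 at week 4, 782, 782 and 968 at week 10, 609.7, 681 and 599.6 at week 20, and 703, 671, 681 and 682 at week 30. Ctse had 0.542, 0.176 and 0.925 CPM at week 0, 0.397 and 0.253 at week 1, 0.558 and 0.284 at week 4, 0.452, 0.138 and 0 at week 10, 1.27, 1.23 and 0.987 at week 20, and 1.75, 1.38, 1.56 and 1.73 at week 30. Ctsk had 0.768, 1.23 and 1.21 CPM at week 0, 0.5675 and 0.464 at week 1, 1.40 and 0.474 at week 4, 0.387, 0.552 and 1.45 at week 10, 1.71, 2.18 and 0.987 at week 20, and 2.18, 1.07, 1.88 and 2.87 at week 30. Ctsh, Ctse and Ctsk were not called against week 0 at any week.

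None of the 11 glycan-degrading enzymes was called at weeks 1 and 4, 1 was higher at week 10, and 6 were higher at week 20 and 6 at week 30, with none lower. Gla had 23.2, 13.2 and 12.3 CPM at week 0, 29.3 and 25.2 at week 1, 30.2 and 21.1 at week 4, 48.6, 40.3 and 23.2 at week 10, 72.3, 36.4 and 76.4 at week 20, and 83.7, 63.2, 78.0 and 78.2 at week 30. It was called at week 10 (1.20 ± 0.30 log2 (adjusted p = 0.0130)), week 20 (1.92 ± 0.31 log2 (adjusted p = 0.000233)) and week 30 (2.22 ± 0.30 log2 (adjusted p = 4.86e-05)). The 4 libraries of week 30 were above all libraries of weeks 0 to 10, while week 20 overlapped week 10 through replicate 2. Gusb had 242, 242 and 227 CPM at week 0, 278 and 237 at week 1, 271 and 319 at week 4, 218, 204 and 254 at week 10, 535, 530.0 and 613 at week 20, and 568, 712, 615 and 581 at week 30. Its early and late weeks did not overlap, with 1.24 ± 0.12 log2 (adjusted p = 3.43e-06) at week 20 and 1.38 ± 0.12 log2 (adjusted p = 5.98e-07) at week 30. Naglu changed by 0.83 ± 0.12 log2 and 0.88 ± 0.11 log2 at weeks 20 and 30, and Gaa by 0.70 ± 0.14 log2 and 0.48 ± 0.13 log2. Idua was called higher at week 20 (0.58 ± 0.15 log2), although NASH Kupffer cells of the population set had less Idua than healthy Kupffer cells.

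Of 8 proteins of lipid breakdown and cholesterol export, none was called at weeks 1 and 4, 2 were higher at week 10, 3 at week 20 and 4 at week 30. Psap had 4415, 4832 and 5725 CPM at week 0, 6013 and 7432 at week 1, 6185 and 5266 at week 4, 6166, 6724 and 6923 at week 10, 13830, 10590 and 13990 at week 20, and 14080, 12010, 12430 and 13360 at week 30. All late libraries were above all early ones, with 1.36 ± 0.16 log2 (adjusted p = 1.41e-05) at week 20 and 1.38 ± 0.15 log2 (adjusted p = 7.79e-06) at week 30. Gm2a had 482, 450.2 and 556 CPM at week 0, 554 and 599.6 at week 1, 571 and 522 at week 4, 649, 761 and 682 at week 10, 857, 768 and 937 at week 20, and 972, 876, 842 and 924 at week 30. Its first call came at week 10 (0.49 ± 0.12 log2 (adjusted p = 0.00901)), and it changed by 0.78 ± 0.12 log2 at week 20 and 0.86 ± 0.11 log2 at week 30. Lipa had 1137, 846 and 976 CPM at week 0, 951 and 1097 at week 1, 969 and 952 at week 4, 1331, 1294 and 1339 at week 10, 1346, 1048 and 1316 at week 20, and 1340, 1133, 1235 and 1182 at week 30. It was called at week 10 (0.42 ± 0.13 log2 (adjusted p = 0.0332)) and not later. Npc1 rose by 1.21 ± 0.15 log2 at week 20 and 0.82 ± 0.15 log2 at week 30, and its partner Npc2 was called only at week 30 (0.49 ± 0.16 log2).

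The membrane proteins changed at different times. Lamp2, a structural glycoprotein that also takes part in chaperone-mediated autophagy, had 612, 537 and 674 CPM at week 0, 923 and 875 at week 1, 527 and 552 at week 4, 836, 694 and 909 at week 10, 701, 647 and 592 at week 20, and 598, 639, 574 and 542 at week 30. It was higher at week 1 (0.56 ± 0.14 log2 (adjusted p = 0.00976)) and week 10 (0.42 ± 0.12 log2 (adjusted p = 0.0260)) and close to week 0 at weeks 20 and 30. Scarb2, the receptor that carries glucocerebrosidase to the lysosome, had 578, 583 and 646 CPM at week 0, 711 and 955 at week 1, 702 and 586 at week 4, 746, 800.4 and 1050 at week 10, 644, 787 and 630.4 at week 20, and 575, 694, 582 and 585 at week 30. It was called at week 10 (0.52 ± 0.15 log2 (adjusted p = 0.0260)). Cln3, a membrane protein whose loss causes juvenile Batten disease, had 108, 125 and 124 CPM at week 0, 82.2 and 70.7 at week 1, 118 and 101 at week 4, 84.7, 90.2 and 104 at week 10, 144, 126 and 141 at week 20, and 142, 127, 122 and 139.8 at week 30. It was lower at week 1 (-0.64 ± 0.13 log2 (adjusted p = 0.00347)) and week 10 (-0.35 ± 0.12 log2 (adjusted p = 0.0420)). Laptm5 rose by 0.84 ± 0.13 log2 at week 20 and 0.63 ± 0.13 log2 at week 30, and Mcoln1 by 0.78 ± 0.18 log2 and 0.49 ± 0.17 log2. Lamp1 (0.55 ± 0.16 log2) and Grn (0.62 ± 0.17 log2) were called at week 20.

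The proton pump was the group with the largest part called, 6 of 8 subunits higher at week 20 and the same 6 at week 30. Atp6v0a1 had 141, 102 and 118 CPM at week 0, 122 and 75.6 at week 1, 124 and 157 at week 4, 92.5, 118 and 97.2 at week 10, 439.5, 367 and 484 at week 20, and 434, 398, 329 and 418 at week 30. Weeks 20 and 30 stood above all earlier libraries, with 1.84 ± 0.19 log2 (adjusted p = 3.65e-06) at week 20 and 1.71 ± 0.18 log2 (adjusted p = 4.21e-06) at week 30. Atp6v1c1, which links the pump's membrane and cytosolic parts, had 64.7, 67.4 and 64.3 CPM at week 0, 91.0 and 87.3 at week 1, 66.0 and 71.8 at week 4, 66.1, 69.5 and 76.6 at week 10, 97.8, 102 and 111 at week 20, and 107, 120.5, 114 and 105 at week 30. It was called at week 1 (0.45 ± 0.11 log2 (adjusted p = 0.0102)), week 20 (0.66 ± 0.10 log2 (adjusted p = 0.000119)) and week 30 (0.77 ± 0.093 log2 (adjusted p = 1.74e-05)). Atp6v1b2 rose by 0.98 ± 0.11 log2 and 0.89 ± 0.11 log2, Atp6v1a by 0.71 ± 0.11 log2 and 0.60 ± 0.11 log2, and Atp6v0d1 by 0.45 ± 0.091 log2 and 0.50 ± 0.086 log2. Atp6ap1, an accessory protein of the pump, had 431, 451 and 483 CPM at week 0, 461 and 477 at week 1, 413 and 464 at week 4, 353, 326 and 367 at week 10, 493, 510.2 and 444 at week 20, and 435, 500.4, 472 and 419 at week 30. It was lower at week 10 (-0.38 ± 0.10 log2 (adjusted p = 0.0181)), where all 3 libraries were below all others.

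Atp6v0c, the proteolipid of the ring through which protons pass, had 26.5, 43.3 and 38.3 CPM at week 0, 95 and 111 at week 1, 72.5 and 81.8 at week 4, 31.0, 23.2 and 28.3 at week 10, 181, 376 and 163 at week 20, and 119, 163, 129 and 135 at week 30. It was called at week 1 (1.52 ± 0.28 log2 (adjusted p = 0.00160)), week 4 (1.101 ± 0.28 log2 (adjusted p = 0.0240)), week 20 (2.74 ± 0.27 log2 (adjusted p = 3.1e-06)) and week 30 (1.92 ± 0.25 log2 (adjusted p = 3.82e-05)). The size of its change depended on the transcript. The authors' table has 6 transcripts of Atp6v0c. Their fold changes are ratios of mean counts over library totals, without TMM factors, so they differ from those of the CPM above. At week 20 over week 0, 2 transcripts, the one used here included, rose 5.54- and 5.65-fold, while the other 4 rose 1.94- to 1.96-fold. At week 30 the same 2 rose 3.32- and 3.37-fold and the other 4 rose 1.80- to 1.82-fold. In NASH over healthy Kupffer cells of the population set, the same 2 rose 1.12-fold and the other 4 rose 1.29- to 1.30-fold. Its values are therefore uncertain as those of a gene.

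**Figure D4:**
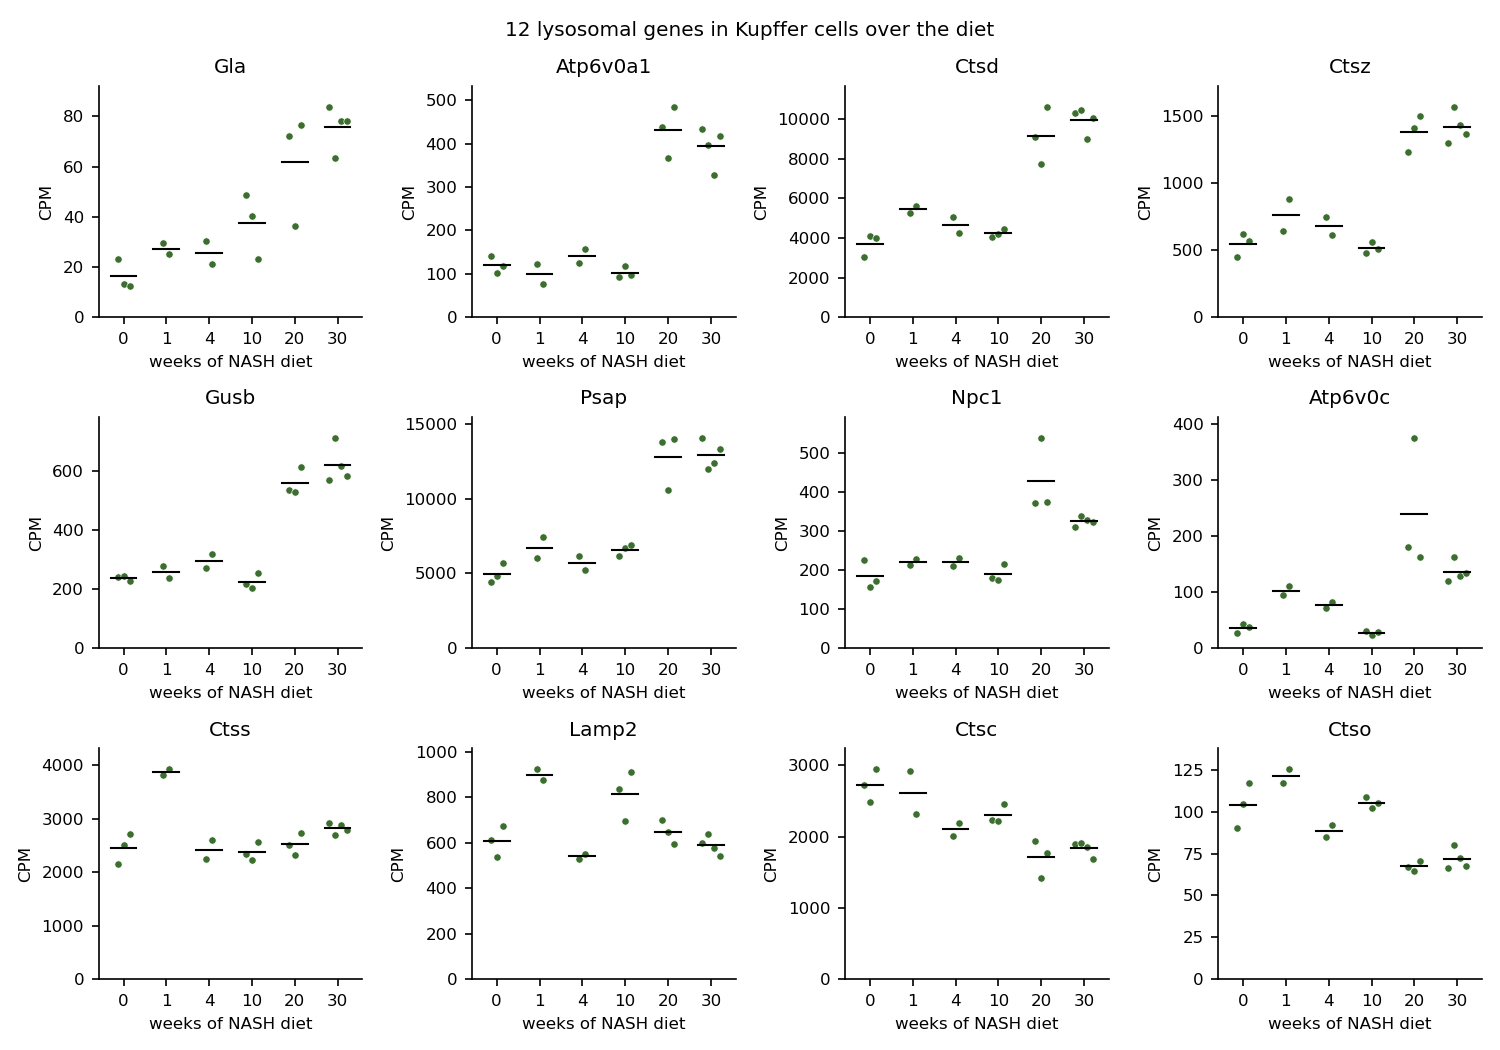
CPM of 12 of the genes in Kupffer cells at weeks 0, 1, 4, 10, 20 and 30 of the NASH diet, with 1 point per library and a bar at each group mean. Ctsd stayed between 3036 and 5631 CPM up to week 10 and lay between 7733 and 10620 CPM at weeks 20 and 30, while Ctso lay at 84.8 to 125.5 CPM up to week 10 and at 64.6 to 79.9 CPM later.

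Among 36 other lysosomal genes, 4 were higher at week 1, 2 at week 4, 3 at week 10, 14 at week 20 and 15 at week 30. Of all genes 9.42%, 5.55%, 11.5%, 18.2% and 15.5% were higher at these weeks. The 36 were thus called higher about as often as all genes up to week 10 and more often later. None, none, 2, 2 and 1 of the 36 were lower, where 6.56%, 2.99%, 7.63%, 16.6% and 15% of all genes were. Cd63 had 0.316, 0.527 and 0.694 CPM at week 0, 1.36 and 1.31 at week 1, 5.39 and 1.42 at week 4, 19.4, 17.2 and 4.24 at week 10, 56.1, 27.9 and 86.2 at week 20, and 98.4, 71.4, 90.6 and 95.1 at week 30. Atp6v0d2 had 0.813, 0.995 and 1.45 CPM at week 0, 1.59 and 2.36 at week 1, 3.90 and 0.948 at week 4, 19.5, 12.1 and 2.18 at week 10, 106, 54.2 and 134 at week 20, and 195, 94.6, 117 and 134 at week 30. Both were at or below 1.45 CPM at week 0 and highest at weeks 20 and 30, with replicate 3 of week 10 far below the other 2 of its group. The sorting receptor Sort1 changed by 3.96 ± 0.51 log2 at week 20 and 4.18 ± 0.51 log2 at week 30, and Igf2r by 1.80 ± 0.15 log2 and 1.59 ± 0.15 log2. Among the MiT/TFE factors, Tfeb had 41.4, 51.6 and 58.4 CPM at week 0, 47.4 and 48.8 at week 1, 52.1 and 54.3 at week 4, 43.7, 40.7 and 45.7 at week 10, 86.9, 83.2 and 102 at week 20, and 82.3, 82.8, 75.8 and 84.6 at week 30. It was called higher at week 20 (0.84 ± 0.12 log2 (adjusted p = 0.000101)) and week 30 (0.69 ± 0.12 log2 (adjusted p = 0.00033)). Mitf was higher at weeks 10 (0.46 ± 0.14 log2), 20 (0.63 ± 0.14 log2) and 30 (0.48 ± 0.13 log2), and Tfec lower at weeks 20 (-0.66 ± 0.17 log2) and 30 (-0.59 ± 0.16 log2). Tfe3, another of these factors, was called lower at week 10 (-0.35 ± 0.12 log2 (adjusted p = 0.0486)).

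Markers of other cells differed between weeks. Hepatocyte markers summed to 49.5 to 150.2 CPM at week 0, 3332 to 5319 at week 1, 2002 to 2147 at week 4, 626.1 to 2904 at week 10, 159.9 to 886.9 at week 20 and 241.4 to 941.2 at week 30, and 10, 9, 9, 6 and 6 of the 10 were called higher at these weeks in turn. Stellate markers summed to 32.2 to 62.8 CPM at week 0, 93.7 to 95.7 at week 1, 74.0 to 142.1 at week 4, 180.3 to 354.3 at week 10, 92.7 to 308.2 at week 20 and 122.9 to 375.1 at week 30. Kupffer markers summed to 24170 to 31330 CPM at week 0, 19240 to 24710 at week 20 and 17070 to 24060 at week 30, with 7 of 9 lower at week 20 and 6 at week 30. Sinusoidal endothelial markers summed to 1244 to 2519 CPM at week 0, 897.8 to 1306 at week 1, 871.6 to 1252 at week 4, 1395 to 1787 at week 10, 967.7 to 1736 at week 20 and 724.5 to 1063 at week 30, with 7, 1, 0, 6 and 7 of 10 called lower at weeks 1 to 30 and none higher. No hepatocyte, stellate or endothelial marker was at 0 in all libraries of a comparison, and the part of these cells in the changes was not tested. Replicate 2 of week 20 stood apart, with the highest hepatocyte marker sum of its group, the most Atp6v0c (375.6 CPM) and the least Gla (36.4 CPM).

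Calls at weeks 1, 4 and 10 rested on few libraries. Of the week 1 calls, Atp6v1c1 (0.39) and Lamp2 (0.50) were not called without replicate 1 of week 1. Ctsd (0.43 to 0.58) was not called without replicate 1 of week 0 or replicate 1 or 2 of week 1. Cln3 (-0.54) was not called without replicate 2 of week 1. Lgmn (0.44 to 0.64) was not called with any 1 of the 5 libraries left out. Of week 4, Atp6v0c (0.92 to 1.17) was not called without replicate 1 or 3 of week 0 or replicate 1 or 2 of week 4. Of week 10, Cln3 (-0.33 to -0.29) and Tpp1 (-0.37 to -0.29) were not called without replicate 2 or 3 of week 0 or replicate 1 or 2 of week 10. Scarb2 (0.36 to 0.50) was not called without replicate 1 or 2 of week 0 or replicate 3 of week 10. Gla (0.96 to 1.07) was not called without replicate 2 or 3 of week 0 or replicate 1 of week 10. Lipa (0.32 to 0.44) was not called without replicate 2 or 3 of week 0 or replicate 1 or 2 or 3 of week 10. Lamp2 (0.33 to 0.40) was not called without replicate 2 of week 0 or replicate 1 or 3 of week 10. Atp6ap1 (-0.34) was not called without replicate 3 of week 0 or replicate 2 of week 10.

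At week 20, 19 of 27 calls were kept in each fit with a library left out. Grn (0.53), Idua (0.39), Lamp1 (0.34) and Lgmn (0.37) were not called without replicate 2 of week 20. Man2b1 (0.30 to 0.59) was not called without replicate 1 or 2 of week 0 or replicate 1 or 2 of week 20. Tpp1 (0.25 to 0.30) was not called without replicate 1 or 2 of week 0 or replicate 1 or 2 or 3 of week 20. Ctsa (0.38 to 0.47) was not called without replicate 1 of week 0 or replicate 1 of week 20. Ctsb (0.29 to 0.51) was not called with any 1 of the 6 libraries left out. At week 30, 19 of 24 were kept. Hexa (0.22 to 0.39) was not called without replicate 1 or 2 of week 0 or replicate 1 or 2 or 3 or 4 of week 30. Glb1 (0.56 to 0.77) was not called without replicate 1 or 2 of week 0 or replicate 1 or 2 or 4 of week 30. Mcoln1 (0.39 to 0.51) was not called without replicate 1 or 2 of week 0 or replicate 2 or 3 or 4 of week 30. Lgmn (0.40 to 0.45) was not called without replicate 1 or 2 of week 0 or replicate 2 or 4 of week 30. Npc2 (0.30 to 0.49) was not called without replicate 1 of week 0 or replicate 2 or 3 of week 30.

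Week 30 was also set directly against week 1, the earliest time on the diet. Called higher were 19 of the 48, where 15.1% of all genes were, and called lower were 7, where 17.7% of all genes were. The largest rises were those of Ctse at 2.29 ± 0.79 log2 (adjusted p = 0.0347), at a level under 2 CPM, Atp6v0a1 at 2.00 ± 0.21 log2 (adjusted p = 6.14e-06), Ctsk at 1.95 ± 0.64 log2 (adjusted p = 0.0278), Gla at 1.48 ± 0.34 log2 (adjusted p = 0.00311), Gusb at 1.27 ± 0.14 log2 (adjusted p = 7.79e-06) and Psap at 0.95 ± 0.17 log2 (adjusted p = 0.000605). Called lower were Ctso at -0.76 ± 0.11 log2 (adjusted p = 0.000119), Lamp2 at -0.61 ± 0.13 log2 (adjusted p = 0.00169), Ctsh at -0.53 ± 0.14 log2 (adjusted p = 0.00795), Ctsc at -0.51 ± 0.14 log2 (adjusted p = 0.0109), Ctss at -0.46 ± 0.13 log2 (adjusted p = 0.0114), Scarb2 at -0.45 ± 0.16 log2 (adjusted p = 0.0390) and Asah1, the acid ceramidase, at -0.43 log2. Hepatocyte markers were lower in 10 of 10 at week 30 than at week 1. Kupffer markers summed to 17070 to 24060 CPM at week 30 and 31250 to 40570 CPM at week 1, with 7 of 9 lower, and stellate markers to 122.9 to 375.1 CPM and 93.7 to 95.7 CPM in the same order, with 3 of 9 higher. The part of these cells was not tested. Ctsa (0.55), Ctsc (-0.31), Laptm5 (0.44), Mcoln1 (0.70), Npc1 (0.54) and Tpp1 (0.42) were not called without replicate 1 of week 1. Atp6v1c1 (0.31 to 0.38), Ctsh (-0.55 to -0.46) and Ctss (-0.45 to -0.42) were not called without replicate 1 or 2 of week 1. Ctse (2.01 to 2.66) was not called without replicate 1 or 2 of week 1 or replicate 1 or 3 or 4 of week 30. Ctsk (1.72 to 2.12) was not called without replicate 1 or 2 of week 1 or replicate 4 of week 30. Manba (0.29 to 0.46) was not called without replicate 1 of week 1 or replicate 1 or 2 or 3 or 4 of week 30. Scarb2 (-0.43 to -0.21) was not called without replicate 2 of week 1 or replicate 1 or 3 or 4 of week 30. Asah1 (-0.40 to -0.27) was not called without replicate 2 of week 1 or replicate 3 of week 30. Lamp2 kept its call with any library left out, but was not called when the longest transcript was used.

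The population set and the time course share no libraries, so their changes in Kupffer cells could be laid side by side. Of the 12 genes called higher in NASH Kupffer cells over healthy ones, 10 (83.3%) were among the 25 called higher at week 20 (40% of these), and 11 (91.7%) among the 22 called higher at week 30 (50%). Over all 14046 genes tested in both sets, 43.4% of the 1598 genes higher in NASH Kupffer cells were also higher at week 20 (26.4% of the 2626 higher then), and 50.1% were also higher at week 30 (35.7% of 2239). The 10 genes higher in all 3 comparisons were the proton pump subunits Atp6v0a1, Atp6v1b2 and Atp6v1c1, the proteases Ctsd and Ctsz, the glycan enzymes Gla, Gusb and Naglu, and the sphingolipid activators Gm2a and Psap. Of the 4 called lower in NASH Kupffer cells, only Ctso (25%) was lower at week 20, and only Ctso (25%) at week 30. Over all genes tested in both sets, 32.8% of the 1375 genes lower in NASH Kupffer cells were also lower at week 20. At week 30 that share was 45.5%. The lower calls thus recurred less often than those of all genes, although 4 genes are too few to compare such shares closely. Idua was lower in NASH Kupffer cells (-0.44 ± 0.11 log2) and higher at week 20 (0.58 ± 0.15 log2), the 1 pair of opposite calls.

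**Figure D5:**
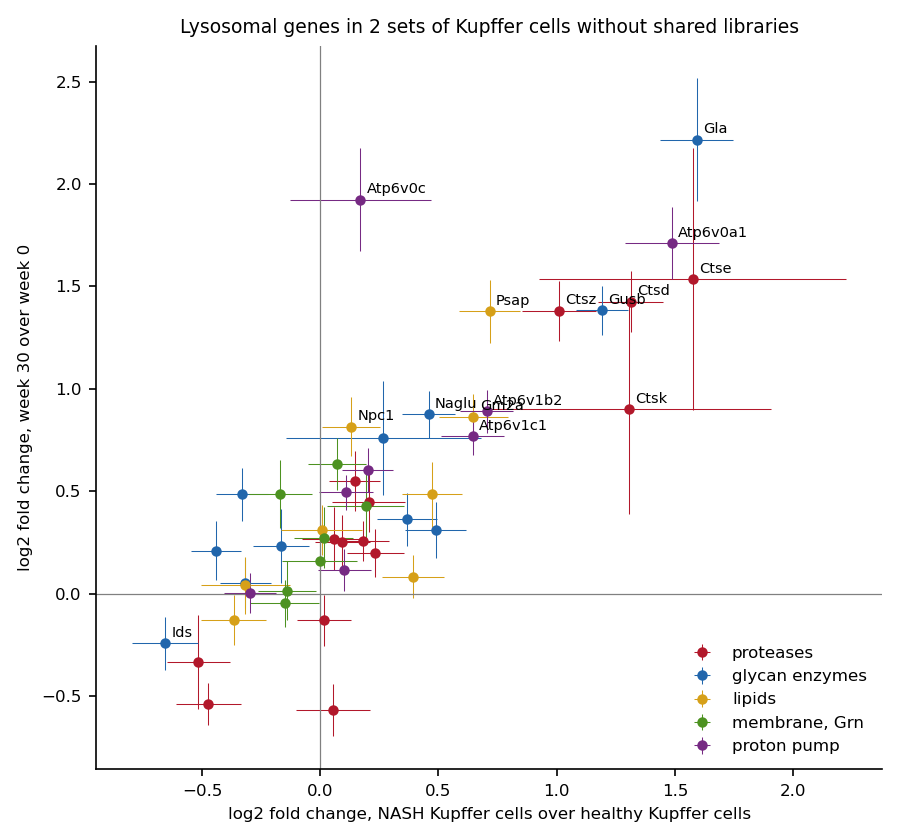
Log2 fold changes of the 48 genes in NASH Kupffer cells over healthy Kupffer cells (horizontal axis, population set) and at week 30 over week 0 (vertical axis, time course), with bars of 1 SE. Gla (1.59 log2 and 2.22 log2), Atp6v0a1 (1.49 log2 and 1.71 log2) and Ctsd (1.31 log2 and 1.43 log2) lie at the upper right. The transcript used for Atp6v0c (0.17 log2 and 1.92 log2) has its large change on the vertical axis alone, and other transcripts of this gene differed less between the sets.

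In the LXR set the genes named in the genotype were read first. Nr1h3, which encodes LXR alpha, had 187, 451 and 298 CPM in niche cells labelled Cre-positive, against 247, 282 and 307 CPM in those labelled Cre-negative (0.17 ± 0.28 log2 (adjusted p = 0.949)). Nr1h2, which encodes LXR beta, had 61.1, 82.5 and 64.5 CPM in the cells labelled Cre-positive and 51.1, 33.3 and 36.6 CPM in those labelled Cre-negative (0.79 ± 0.24 log2 (adjusted p = 0.261)). Neither was lower in the libraries labelled Cre-positive, and counts over whole transcripts, which can include exons outside a floxed stretch, do not check the deletion.

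None of the 47 lysosomal genes tested was called between niche cells labelled Cre-positive and Cre-negative, where 0.174% of all 11480 genes were called higher and 0.0348% lower. edgeR gave 0 of the 47 an unadjusted p under 0.05, and DESeq2 and limma called 0. The 3 genes with the smallest p were Neu1, Lgmn and Ctss. Neu1 had 63.1, 78.5 and 58.9 CPM in the libraries labelled Cre-positive, against 77.2, 116 and 81.3 CPM in those labelled Cre-negative (-0.45 ± 0.22 log2 (adjusted p = 0.677)). Lgmn had 936, 1771 and 1309 CPM in the libraries labelled Cre-positive and 866, 1096 and 849.7 CPM in those labelled Cre-negative (0.51 ± 0.25 log2 (adjusted p = 0.678)). Ctss had 715, 959 and 998 CPM in the libraries labelled Cre-positive and 520.4, 748 and 709 CPM in those labelled Cre-negative (0.43 ± 0.22 log2 (adjusted p = 0.695)). The groups overlapped in all 3 genes. The changes of the 47 ran from -0.45 to 0.51.

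Ctse was not tested in this set because of its low counts. It had 5, 11 and 16 counts in the libraries labelled Cre-positive, against 0, 1 and 0 counts in those labelled Cre-negative, so the groups did not overlap. In sum these were 32 counts and 1 count, a ratio of 30.4 between the shares of all counts of the groups (95% exact binomial interval 5.08 to 1238, which covers counting error only). It was singled out after its values were seen. An exact permutation test of 3 against 3 libraries cannot go below 0.10. Ly6C-high monocyte markers summed to 174.5 to 248.0 CPM in the libraries labelled Cre-positive and 34.3 to 68.0 CPM in those labelled Cre-negative, with 1 of the 3 tested called higher, while Kupffer markers summed to 2315 to 11020 CPM and 3982 to 5104 CPM in the same order, with none of 9 called. Their part in these values was not tested.

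In whole liver the 48 genes took 0.80% to 1.62% of counts in DTR-positive livers and 0.83% to 1.51% in DTR-negative livers. The leading genes per length were Ctsd at a mean of 894.2 TPM in DTR-positive livers and 852.4 TPM in DTR-negative livers, Psap at 831.3 and 783.0 TPM in the same order, and Lamp1 at 620.9 and 626.5 TPM. None of the 48 was called, where 0% of all 12682 genes were called in either direction. edgeR gave 1 of the 48 and 477 of all genes an unadjusted p under 0.05, and DESeq2 and limma called 0 of the 48. The changes ran from -0.14 to 0.15. The 3 genes with the smallest p were Mcoln1, Neu1 and Manba. Mcoln1 had 29.8 to 39.9 CPM (median 34.4) in DTR-positive livers and 29.2 to 44.8 CPM (median 38.1) in DTR-negative livers (-0.14 ± 0.066 log2 (adjusted p = 1.000)). Neu1 had 59.9 to 72.6 CPM (median 65.1) in DTR-positive livers and 62.1 to 80.8 CPM (median 70.3) in DTR-negative livers (-0.09 ± 0.047 log2 (adjusted p = 1.000)). Manba, the beta-mannosidase, had 26.2 to 39.0 CPM (median 34.3) in DTR-positive livers and 26.9 to 35.1 CPM (median 29.8) in DTR-negative livers (0.10 ± 0.071 log2 (adjusted p = 1.000)). All 3 overlapped between the groups. Clec4f, the Kupffer cell gene whose promoter drives the Cre, had 3.37 to 140.3 CPM (median 41.3) in DTR-positive livers and 1.37 to 118 CPM (median 32.1) in DTR-negative livers.

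Some livers stood apart in both genotypes. Replicates 1, 2 and 7 of the DTR-positive livers and replicate 2 of the DTR-negative livers had 0.80% to 0.87% of counts in the 48 genes, against 1.05% or more in the others. Their macrophage and monocyte markers summed to 271.6 to 476.5 CPM, under a limit of 500 CPM that was set after the data were seen. Without these 4 livers edgeR called 0 of 12702 genes, 3 of the 48 had an unadjusted p under 0.05, and the changes ran from -0.19 to 0.37. The number of all genes with such a p was not counted in that fit.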

How the data were processed

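RNA-seq libraries of sorted macrophages and monocytes and of liver tissue were analysed from the authors' deposited tables. Per the file headers, the authors counted reads over exons of RefSeq transcripts (mm10) with HOMER, giving raw counts, and a second table gives the same transcripts as TPM, which HOMER scales to transcript length and library. The submitters' processing notes also name STAR and DESeq2, without versions. Liver cells were isolated with flavopiridol, a transcription blocker, per the labels' protocols.

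Each gene was represented by its transcript with the highest total count, which had been 1 of several for 18 of the 48 genes. Library totals, scaling and tests were computed per set over all genes with edgeR 4.0.16 in R 4.3.3, using the filter of filterByExpr (lowest count 10, lowest total 15), TMM scaling and the quasi-likelihood test. Benjamini-Hochberg adjustment ran over all genes tested, two-sided, with a threshold of 0.05, and SE is the absolute log2 fold change over the root of F. Each fit held all groups of its set, with no covariate. Tested were 14407 genes in the population set, 14552 in the time course, 11480 in the LXR set and 12682 in whole liver. The steps were tested on simulated data. DESeq2 1.42.0, limma 3.58.1 on log2(TPM + 1), RLE scaling, no filter, the longest transcript, a fit of only the compared groups, a replicate block and left-out libraries were the alternatives. Figures used matplotlib 3.10.9.

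The 48 genes and all lists were chosen with earlier results of these data known. In each comparison, values are given for up to 6 called genes a direction with the largest changes, or the 3 with the smallest p where none was called, and further genes are named by role. No 2 replicates looked like 1 library, since the lowest chi-square per degree of freedom over 140 replicate pairs was 5.03. Depth limits the LXR set most. A result on the list of other lysosomal genes in the LXR set is not reported here.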

Additional observations from a re-analysis of the deposited data

Results flagged for a closer look

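The 48 genes were checked for 1 library far from the rest, measured as its gap over the range of its group, in the 2 groups of 4 to 10 libraries, Kupffer cells at week 30 (4 libraries) and DTR-negative livers (10). Of these 96 sets of values 3 held such a library, all at week 30, where chance, at about 1 in 20, would give 4.8. Scarb2 was high in replicate 2 (694.1 CPM, against 575.2 to 585.2 in the others, gap share 0.9165), as was Ctsl (397.5 CPM, against 325.9 to 334.8, gap share 0.8758). Naglu was low in replicate 3 (121.3 CPM, against 131.9 to 133.8, gap share 0.8453).

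Kupffer cells differed between week 30 and week 1 in 26 of the 48 genes, by edgeR's direct test of the difference. Time on the diet cannot be told apart here from age or time of collection. Of these 19 were higher at week 30, where 15.1% of all genes were, and 7 lower, where 17.7% of all genes were. The log2 difference, week 30 minus week 1, was positive among the proteases for Ctse (2.29), Ctsk (1.95), Ctsz (0.90), Ctsd (0.87), Ctsa (0.63) and Tpp1 (0.43), with Ctse and Ctsk at low levels. It was positive among the glycan-degrading enzymes for Gla (1.48), Gusb (1.27), Naglu (0.91) and Manba (0.42) and in lipid breakdown and cholesterol export for Psap (0.95), Gm2a (0.65) and Npc1 (0.57). Membrane proteins with a positive difference were Mcoln1 (0.85), Cln3 (0.80) and Laptm5 (0.48), and proton pump subunits were Atp6v0a1 (2.00), Atp6v1b2 (0.66) and Atp6v1c1 (0.32). The difference was negative for Ctso (-0.76), Lamp2 (-0.61), Ctsh (-0.53), Ctsc (-0.51), Ctss (-0.46), Scarb2 (-0.45) and Asah1 (-0.43). Hepatocyte markers summed to 241.4 to 941.2 CPM at week 30 and 3332 to 5319 CPM at week 1, and their part in these differences was not tested.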

How the results depend on the processing

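No call of the 48 genes reversed under the alternatives run. Counts of called genes within 1.5 times of the main count under every alternative were those of niche cells over blood monocytes (37), Ly6C-low over niche cells (31), Ly6C-high cells over blood monocytes (23), and weeks 20 (27) and 30 (24) over week 0. None of the genes was called in the LXR set or in whole liver under the alternatives run there. For niche over NASH Kupffer cells, against 2 calls, no filter gave 4, DESeq2 10, limma 0, and only the compared groups 1. For week 1 over week 0, against 7 calls, DESeq2 gave 17, limma 4 and only the compared groups 2. For week 4, against 1, DESeq2 gave 3 and limma 4. For week 10, against 8, no filter gave 4 and only the compared groups 1. With 1 library left out, NASH over healthy Kupffer cells had 8 to 13 calls against 16, niche over NASH Kupffer cells 0 to 1, niche cells over blood monocytes 34 to 37, Ly6C-low over niche cells 21 to 26, Ly6C-high cells over blood monocytes 17 to 20, and Ly6C-low over Ly6C-high cells 4 to 9 against 13. In the time course these ranges were 3 to 7 at week 1, 0 to 1 at week 4, 2 to 8 at week 10, 22 to 27 at week 20, 19 to 24 at week 30, and 14 to 25 for week 30 over week 1 against 26. A lone library left in a group is assumed to vary like the other groups, and the cause of these shifts was not tested beyond the smaller number of libraries. The labels do not say that replicate numbers pair samples. Deviations of same-numbered libraries correlated at -0.11 for Ly6C-high cells and blood monocytes and at 0.57 for niche and NASH Kupffer cells, and with 3 or more pairs every library matched its own number best only at week 10 (3 of 3, against 0 at week 20 and 1 at week 30). The replicate block moved no count by over 1.5 times, with 17 calls for NASH over healthy Kupffer cells, 20 at week 30 and 20 for week 30 over week 1. A crossed block, added after seeing the data, gave 22 calls for Ly6C-high cells over blood monocytes. Calls kept under every alternative numbered 6 of 16, 0 of 2, 32 of 37, 18 of 31, 15 of 23 and 3 of 13 in the order of the population comparisons.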
